A study of Paxillus involutus with 12 samples.

Results

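Of the 12214 sequences on an oligonucleotide array of the fungus Paxillus involutus, 158 changed level between days 6 and 8 of a carbon starvation course and moved little before and after it. They were chosen from the mean log2 expression value of each harvest day. The day 8 mean had to differ from the day 6 mean by at least 0.5, while day 6 lay within 0.3 of day 2 and day 13 within 0.3 of day 8. Of the 158, 90 were higher at day 8 (the rises) and 68 were lower (the falls). Every difference between day means was thus used to choose them, and the size of the switch and the flatness around it are described here and not tested as findings.

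The arrays measured total RNA of mycelium of strain ATCC 200175, grown without a host on glass beads in a minimal Melin Norkrans medium whose ammonium gave a C/N ratio of 3. Mycelium was harvested at days 2, 6, 8 and 13, with 3 arrays per day, each from a separate pool of 2 cultures, so all 4 groups share strain, medium and a preceding spell without nitrogen and differ in harvest day. No carbon-fed cultures of the same age are among the samples, so starvation and culture age cannot be told apart. In mycelium, a shift in the share of hyphae of different states and a change of RNA level within each hypha cannot be told apart either.

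Paxillus involutus is an ectomycorrhizal basidiomycete: it sheathes the roots of trees and takes sugar from them in exchange for nitrogen and phosphorus. A mycelium cut off from sugar is known to use its reserves and then to break down its own cell contents, by autophagy among other routes, and to move the released nutrients to living hyphae. Expression that is level, then different, then level again describes transcripts whose amounts differ between the earlier and the later sampled days of such a course. The array identifies sequences by number only, its gene information column was empty, and a search of the reference table's 18033 genes found 0 of the IDs, so the files do not pair these sequences with genes. No function is therefore given for any of them, no pathway could be counted, and no sequence is printed.

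The class depends on which arrays are day 6 and which are day 8. The samples titled day 6 are described as arrays 4 to 6 and also as subarrays 7 to 9, and those titled day 8 as arrays 7 to 9 and as subarrays 4 to 6. The titles were followed. With the days exchanged, the same limits chose 25 rises and 7 falls, and 0 of them were among the 158. By array number, the 6 arrays before the switch are numbers 1 to 6 and the 6 after it are numbers 7 to 12, while by subarray number those before are 1 to 3 and 7 to 9 and those after are 4 to 6 and 10 to 12. If the array number is the position on the chip, position and the switch cannot be told apart. Median log2 values per array ran from 11.35 to 11.38, and a control of random sequences lay between 4.53 and 4.70 before the switch and between 4.49 and 4.67 after it.

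Fewer sequences switched here than in either other interval. The same limits applied to the other intervals chose 624 sequences that changed only between days 2 and 6 and 1093 that changed only between days 8 and 13. The intervals differ in length. The median switch of rises and falls was 0.68 and -0.61 on the log2 scale between days 2 and 6, 0.58 and -0.61 between days 6 and 8, and 0.70 and -0.73 between days 8 and 13. Switches of at least 2-fold numbered 5 between days 6 and 8, against 49 rises and 26 falls in the first interval and 125 rises and 90 falls in the last.

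**Figure D1:**
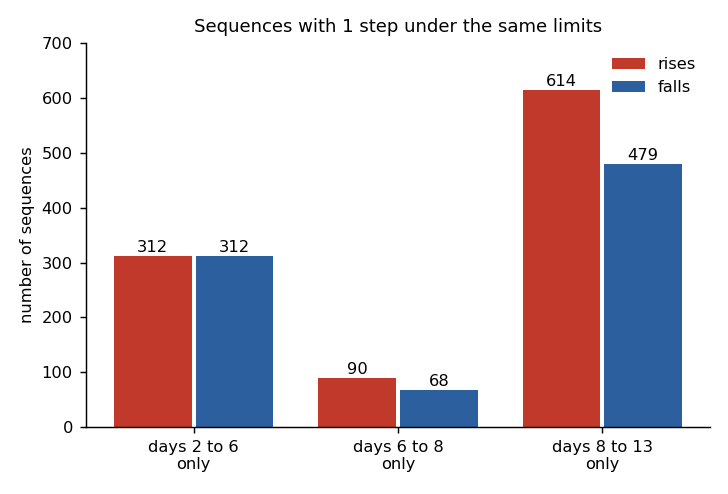
Number of sequences (y axis) that changed by at least 0.5 log2 in 1 interval and by less than 0.3 in the other intervals, for the 3 intervals (x axis), with rises in red and falls in blue. The middle interval holds 90 rises and 68 falls, against 312 and 312 in the first and 614 and 479 in the last.

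Most sequences that changed between days 6 and 8 were also moving at another time. In all, 501 sequences (4.1% of 12214) were at least 0.5 higher at day 8 and 589 (4.82%) at least 0.5 lower. Of the 501, 237 were within 0.3 before, 186 within 0.3 after and 90 both, or 18.0%. Of the 589, the numbers were 211, 171 and 68, or 11.5%. Over all sequences, 33.3% were within 0.3 in both intervals. Where an upward change had been preceded by movement beyond the limit, it was in the same direction in 244 sequences and in the opposite direction in 20. For downward changes these numbers were 195 and 183, and over all sequences, set against their own change between days 6 and 8, 3145 and 1895. Movement beyond the limit afterwards was in the same direction in 130 and the opposite in 185 of the upward changes, and in 235 and 183 of the downward ones. Over all sequences, again set against their own change between days 6 and 8, these numbers were 2825 and 3082.

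The limits cut through a continuous distribution. The smallest rise inside was 0.501 and the largest outside, among sequences flat on both sides, was 0.499. The smallest fall inside was 0.503 in size and the largest outside 0.491. Within 0.05 of the limit of 0.5 lay 25 rises inside and 44 sequences outside, and 16 falls inside and 18 outside. The limit of 0.3 on the change between days 2 and 6 had 12 rises within 0.05 inside and 16 sequences outside, and the limit between days 8 and 13 had 18 inside and 17 outside. For the falls these numbers were 11 and 7, and 8 and 13.

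Membership of single sequences moved with single arrays. When each of the 12 arrays was left out in turn, the rises numbered 74 to 131 and the falls 55 to 77. The rises that stayed in all 12 repeats numbered 34 of 90, and the falls 20 of 68. No sequence changed from rise to fall in any repeat, an outcome that the step limit strongly favours.

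The rises were moderate in size. Their day 8 minus day 6 difference ran from 0.501 to 1.18 on the log2 scale with a median of 0.584, which is 1.50-fold, and 10 of 90 reached 0.75. The median difference over all sequences was 0.002. The median level of the rises, over all 12 arrays, was 10.69, below the median of 11.37 of all sequences. Only 19 of 90 (21.1%) lay above that median. All 90 were at least 2-fold above the random control on every array. The share of all sequences that far above it is not given here. All 90 rested on 10 probe pairs, as did 12203 of the 12214 sequences.

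paxillus_10815 had the largest rise and also the widest gap between the arrays before and after. Its log2 values were 9.32, 9.69 and 9.70 (day 2), 9.70, 9.78 and 9.71 (day 6), 10.80, 10.82 and 11.10 (day 8), and 11.04, 11.08 and 11.11 (day 13). The lowest of the 6 later arrays stood 1.01 above the highest of the 6 earlier ones. Between day 6, at 9.73 ± 0.05 (SD, n = 3), and day 8, at 10.91 ± 0.17, the rise was 2.26-fold, a log2 difference of 1.18 ± 0.11 (SE, limma adjusted p = 1.38e-04). From day 2 to day 6 the difference was 0.16 ± 0.11 (limma adjusted p = 0.248) and from day 8 to day 13 it was 0.17 ± 0.11 (limma adjusted p = 0.203), with 95% intervals of -0.08 to 0.40 and -0.06 to 0.41.

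paxillus_8981 was second by both measures. Its values were 9.97, 10.31 and 10.16 (day 2), 10.33, 10.35 and 10.29 (day 6), 11.27, 11.22 and 11.65 (day 8), and 11.34, 11.31 and 11.19 (day 13). The later and earlier arrays were separated by 0.84. Its day 8 minus day 6 difference was 1.06 ± 0.12 (SE), or 2.08-fold, and after it the level differed by -0.10 ± 0.12. The other rise above 2-fold, singled out after its values were seen, was paxillus_11183, from 10.05 ± 0.30 (SD, n = 3) and 9.96 ± 0.09 at days 2 and 6 to 11.01 ± 0.22 and 11.18 ± 0.15 at days 8 and 13.

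The rises spanned a wide range of signal. The brightest was paxillus_950, with values of 12.18, 12.62 and 12.32 (day 2), 12.40, 12.42 and 12.50 (day 6), 12.96, 13.00 and 13.14 (day 8), and 12.92, 13.21 and 13.13 (day 13). Its arrays before and after did not overlap, and its means of 13.03 ± 0.09 (SD, n = 3) and 13.09 ± 0.15 at days 8 and 13 were close to each other. The dimmest was paxillus_12474, with 6.73, 7.76 and 7.58 (day 2), 7.59, 7.59 and 7.65 (day 6), 8.49, 8.47 and 8.70 (day 8), and 8.68, 9.04 and 8.55 (day 13). Its first day 2 array was low by itself, the SD at day 2 was 0.55, and the gap between the earlier and the later arrays was 0.71.

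The falls were about as large and included the largest switch of the class. Their day 8 minus day 6 difference ran from -0.503 to -1.49, with a median of -0.613, which is 1.53-fold, and 12 of 68 reached 0.75 in size. Their median level was 11.35, near the median of all sequences, and 32 of 68 (47.1%) lay above it. All 68 rested on 10 probe pairs, as nearly all sequences did, and 67 were at least 2-fold above the random control on every array.

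paxillus_1325 fell most. Its values were 11.20, 11.36 and 11.12 (day 2), 10.86, 11.68 and 11.03 (day 6), 9.98, 9.59 and 9.54 (day 8), and 9.48, 9.78 and 9.58 (day 13). All 6 earlier arrays lay at least 0.88 above the 6 later ones, although the day 6 arrays spread widely, with an SD of 0.43. The fall was 2.81-fold, a log2 difference of -1.49 ± 0.18 (SE, limma adjusted p = 4.39e-04, 95% interval -1.89 to -1.09). The differences of -0.04 ± 0.18 before it and -0.09 ± 0.18 after it were smaller than their standard errors.

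paxillus_7377, the second largest, fell 2.00-fold. It stood at 12.63, 12.94 and 12.88 (day 2), 12.61, 12.56 and 12.63 (day 6), 12.00, 11.45 and 11.34 (day 8), and 11.70, 11.82 and 11.62 (day 13). The day 8 arrays were uneven, with the first above both others, and the day 13 arrays lay between them. paxillus_10034 had the second widest gap, 0.72, with a switch of -0.77 ± 0.09 (SE). It read 10.01, 9.65 and 9.94 (day 2), 9.58, 9.57 and 9.63 (day 6), 8.83, 8.85 and 8.81 (day 8), and 8.72, 8.53 and 8.60 (day 13). It was not fully flat, since its decline of -0.27 ± 0.09 from day 2 to day 6 passed the test (limma adjusted p = 0.0285).

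The brightest and the dimmest fall differed in kind. paxillus_3538, at 14.04, 13.73 and 13.82 (day 2) and 13.90, 14.00 and 13.87 (day 6), stood at 13.28, 13.24 and 13.09 (day 8) and 13.33, 12.99 and 13.23 (day 13). Its later arrays were all lower, by a gap of 0.40, with day means of 13.86, 13.92, 13.20 and 13.18. paxillus_13540 had its highest value, 4.75, on the second day 6 array, and values between 3.35 and 4.30 on the others. Its mean of 3.87 lies below the random control, its days overlapped, and its difference of -0.51 ± 0.25 did not pass the test (limma adjusted p = 0.149). With array weights in the fit the difference was -0.60 and passed, and without the second day 6 array it was -0.17 and did not.

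**Figure D2:**
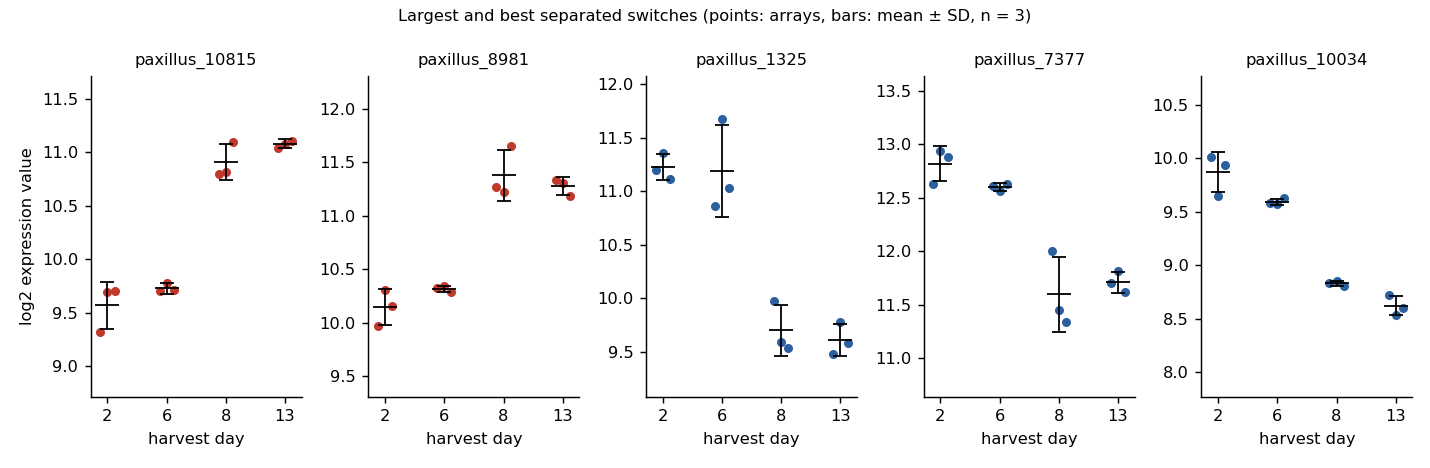
Log2 expression value (y axis, each panel spanning 3 log2 units) by harvest day (x axis) for the 2 rises (red) and 3 falls (blue) with the largest switch or the widest gap. Points are arrays and bars are the mean ± SD of 3 arrays. In each panel the 6 arrays of days 8 and 13 lie apart from the 6 arrays of days 2 and 6, by 1.01 in paxillus_10815 and by 0.56 in paxillus_7377.

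The test across all sequences (limma, 12 arrays, adjusted p under 0.05) called 90 of 90 rises higher at day 8 than at day 6, where it called 14.3% of all sequences higher. It called 62 of 68 falls lower, where it called 11.6% of all sequences lower. These shares follow from the choice of members. The 3 arrays of day 8 all lay above those of day 6 in 90 of 90 rises (29.6% of all sequences) and all below in 65 of 68 falls (26.4%). The 3 falls with overlap were paxillus_13540, paxillus_1258 and paxillus_12616. With array weights 90 rises and 68 falls were called. Leaving out 1 array gave 81 to 90 called rises and 48 to 65 called falls.

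The 6 falls that missed the test, paxillus_13540 among them, had SDs within days, pooled over the 4 days, between 0.283 and 0.458, against a median of 0.180 over the 68. The noisiest were paxillus_5060 and paxillus_5061, which carry consecutive numbers. paxillus_5060 had day means of 11.49 ± 0.64, 11.61 ± 0.20, 10.87 ± 0.28 and 10.79 ± 0.56 (SD, n = 3), and its difference of -0.74 between days 6 and 8 had a limma adjusted p of 0.0962. These sequences were singled out after their values were seen.

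The switch held to day 13 in most members. All 6 arrays of days 8 and 13 lay above all 6 of days 2 and 6 in 79 of 90 rises, where 10.8% of all sequences did so. All 6 lay below in 49 of 68 falls, where 9.4% did so. The gap was at least 0.5 in 10 rises and 5 falls. The share of all sequences with a gap that wide is not given here, so these numbers cannot be called many or few. The contrast of days 8 and 13 with days 2 and 6 was called higher in 90 rises (32.6% of all sequences) and lower in 66 falls (29.3%). The 2 falls not called were paxillus_13540 and paxillus_6438. The day means of paxillus_6438 were 9.74, 9.99, 9.46 and 9.68, and its 6 later arrays overlapped the 6 earlier ones. These shares also follow from the choice of members.

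**Figure D3:**
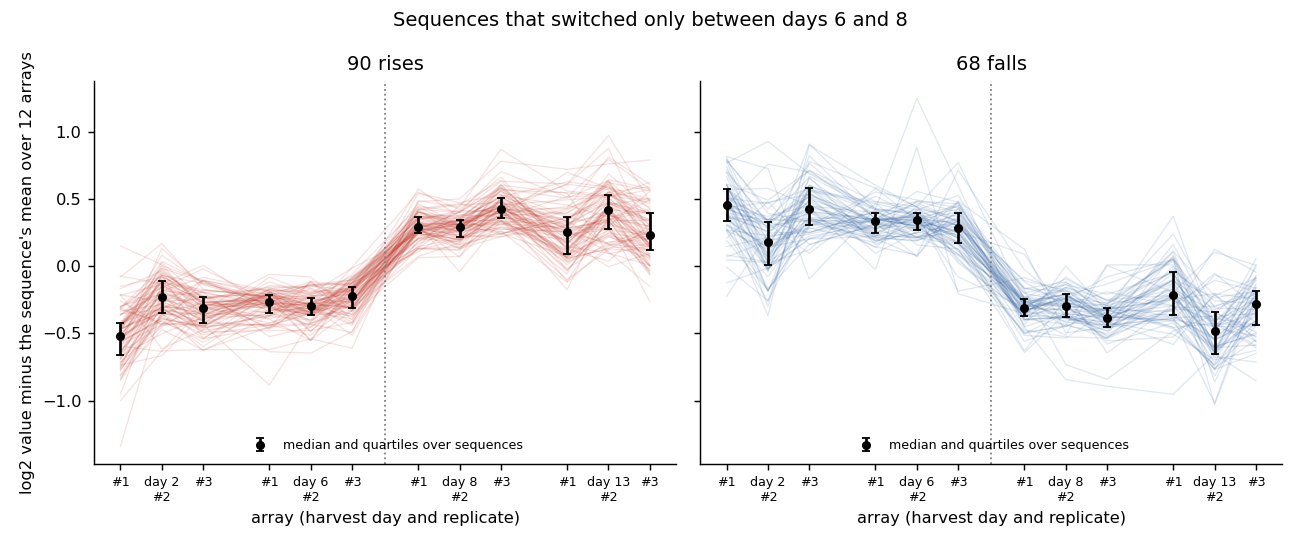
Log2 value minus the sequence's own mean over 12 arrays (y axis) on each array in order of harvest day (x axis), with 1 thin line per sequence and black points and bars for the median and quartiles over sequences. The medians of the 90 rises lie between -0.52 and -0.22 on the 6 arrays before the dotted line and between 0.23 and 0.42 after it, and those of the 68 falls between 0.18 and 0.46 before and between -0.48 and -0.21 after.

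Within the flat limits the day means still differed in both directions, though most of these differences did not pass the test. From day 2 to day 6, 62 rises and 40 falls moved in the direction of the coming switch, and 28 and 28 moved against it. The median change was 0.097 for rises and -0.042 for falls, against 0.003 over all sequences. From day 8 to day 13, 38 rises and 34 falls went further and 52 and 34 went back. The medians were -0.054 and 0.004, against -0.011 over all sequences. Each of these differences shares a day mean with the switch itself. The levels changed by less than 0.1 in both flat intervals in 12 rises and 11 falls.

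Over the whole span, day 13 minus day 2 had the sign of the switch in all 158 members. Its median was 0.602 in the rises and -0.693 in the falls, against 0.033 over all sequences. It ran from 0.145 to 1.51 in the rises and from -0.066 to -1.62 in the falls. The switch between days 6 and 8 was larger than this net change in 45 rises and 30 falls. The sign of the net change, and much of its size, follow from the choice of members.

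Flat by the limit was not always unchanged by the test. Between days 2 and 6, 8 rises and 5 falls had a called difference, where 46.1% of all sequences were called in either direction. The flat limit keeps such calls few among the members by construction. Of the 13 called members, 11 moved in the direction of the coming switch. The exceptions were the rise paxillus_1063, 0.24 lower at day 6, and the fall paxillus_12310, 0.25 higher. The count of 13 became 6 without the first day 2 array, 23 without the second and 7 without the third. With array weights in the fit it was 38. It became 3, 5 and 3 without the first, the second and the third array of day 6.

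Between days 8 and 13, 14 rises and 1 fall were called, where 54.1% of all sequences were. Here too the flat limit keeps calls few by construction. In 11 of the 14 rises the level declined, by up to 0.30, and paxillus_10267, paxillus_6299 and paxillus_6619 rose further. The fall, paxillus_2701, declined further, by 0.29. The count of 15 became 24 without the first day 2 array, 8 without the second day 8 array and 7 without the third day 13 array. A called change at day 8 with no call on either side was left in 72 of 90 rises (3.12% of all sequences, higher) and 56 of 68 falls (1.71%, lower). The flat limits favour this pattern by construction. With array weights it was left in 62 rises and 46 falls, and with 1 array left out in 65 to 76 rises and 40 to 59 falls. Both flat intervals were called in 4 rises, paxillus_6792, paxillus_12537, paxillus_3833 and paxillus_11684, each of which crept up before the switch and slipped back after it.

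The switch was also read in arrays that had no part in choosing the sequences. The sequences read were newly chosen sets, only partly the same as the members described above. The limits were applied to 2 arrays per day, and day 8 minus day 6 was taken from the arrays of the number left out. Array numbers name arrays only and pair nothing between days. With numbers 1, 2 and 3 left out, 74 of 107, 62 of 108 and 56 of 92 chosen rises were also members. For the chosen falls these numbers were 42 of 74, 45 of 74 and 45 of 65. With number 3 left out, 92 rises and 65 falls were chosen, and their median difference in the left-out arrays was 0.590 and -0.586, against 0.581 and -0.615 in the arrays that chose them. It was above 0 in 90 of the 92 rises (52.7% of all sequences) and below 0 in 65 of 65 falls (47.3%).

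With number 1 left out, the median in the left-out arrays was 0.562 over 107 rises and -0.505 over 74 falls. The sign held in 107 (51.0% of all sequences above 0) and 73 (49.0% below 0). With number 2 left out it was 0.501 over 108 rises and -0.560 over 74 falls, and the sign held in 108 (48.7% above 0) and 73 (51.2% below 0). The median over all sequences in these arrays was between -0.007 and 0.019. With number 1 left out, a difference of at least 0.5 was met again in 69 of 107 rises (4.93% of all sequences) and 37 of 74 falls (5.72%). With number 2 it was met in 56 of 108 rises (4.45%) and 49 of 74 falls (5.3%), and with number 3 in 64 of 92 rises (6.4%) and 41 of 65 falls (6.38%). With 1 array per day there is no test.

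The flat intervals of these newly chosen sets held less well in the left-out arrays. The limits fixed the flatness in the choosing arrays only, so some loss follows from the choice. The median change from day 2 to day 6 was 0.246, -0.079 and 0.173 for the rises with numbers 1, 2 and 3 left out, and -0.184, 0.221 and -0.240 for the falls. Over all sequences in these arrays it was 0.03, -0.014 and -0.009. From day 8 to day 13 it was -0.027, 0.222 and -0.180 for the rises and 0.084, -0.338 and 0.141 for the falls. Over all sequences it was 0.0, -0.011 and -0.02. In these single arrays rises and falls departed from level in opposite directions in each of the 6 cases.

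Spread between arrays of a day differed by day. For days 2, 6, 8 and 13 in turn, the members had a median SD of 0.181, 0.080, 0.096 and 0.161, and all sequences had 0.129, 0.079, 0.077 and 0.139. Members and all sequences alike were tightest at days 6 and 8, so this is not particular to the members. The excess of the members over all sequences was largest at day 2.

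Rises and falls also moved as groups between arrays of the same day. The choice of members used the day means and not the departures from them. Each array's value enters both, however, so the departures are not independent of the choice. Without the third day 8 array the limits chose 74 rises and 55 falls, against 90 and 68. For each array the departure of every sequence from its own day mean was taken. On the second day 2 array, 80 of 90 rises but 8 of 68 falls lay above their day mean, with median departures of 0.139 and -0.154. On the first day 2 array, 9 of 90 rises and 52 of 68 falls lay above it, with median departures of -0.160 and 0.075. Over all sequences, 56.6% and 40.2% lay above their day mean on these 2 arrays.

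The same opposition appeared at the later days. The third day 8 array had median departures of 0.103 for rises and -0.060 for falls, and the second day 13 array 0.113 and -0.163. The first day 13 array stood the other way, at -0.069 and 0.140. On the day 6 arrays the medians lay between -0.027 and 0.047 for the rises and between -0.044 and 0.025 for the falls. The signs of the rises and the falls were opposite on 11 of 12 arrays, the exception being the third day 2 array, and on the first day 6 array both medians were within 0.003 of 0.

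Over these 12 departures the mean correlation was 0.428 between pairs of rises, 0.341 between pairs of falls and -0.315 between a rise and a fall. Over all pairs of the 12214 sequences it was 0.010. These correlations describe sequences that share the same 12 arrays and cultures, and the departures of the 3 arrays of a day sum to 0. The control level and the array medians are given above, and their part in the departures was not tested.

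**Figure D4:**
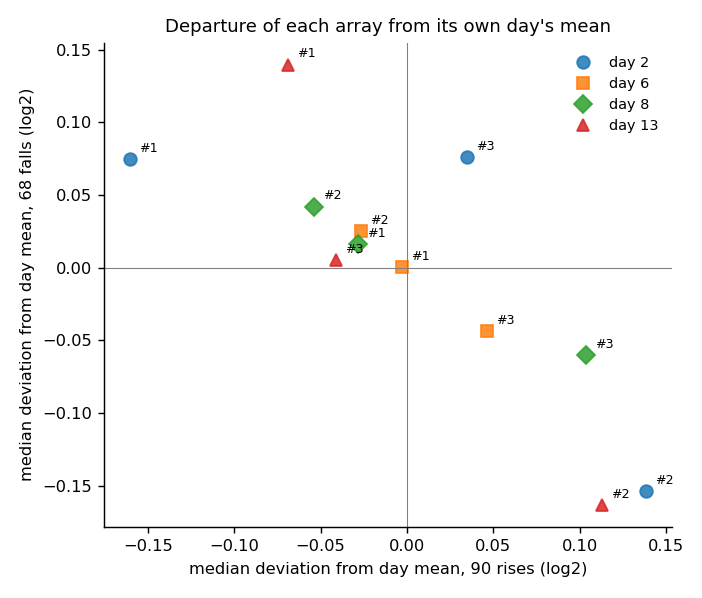
Median departure of the 68 falls (y axis, log2) against that of the 90 rises (x axis, log2) from the mean of the array's own day, with 1 point per array, marked by day and labelled by replicate. Points lie mostly in the upper left and lower right, from -0.160 and 0.075 on the first day 2 array to 0.139 and -0.154 on the second.

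The members were unevenly placed in the array's numbering. The numbering runs from 1 to 13654, and what it follows is not given in the sources used here. Among the 1000 sequences numbered 7001 to 8000 there were 17 falls and 0 rises. The 990 sequences of the range just before, 6001 to 7000, held 17 rises and 6 falls. Numbers above 10000 held 44.4% of the rises, 17.6% of the falls and 29.6% of all sequences. Numbers 6001 to 9000 held 48.5% of the falls, 23.3% of the rises and 24.5% of all sequences.

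Level also varied along the numbering. The median level was 12.07 in the range 7001 to 8000, 11.10 in the range 6001 to 7000 and 9.65 in the range 12001 to 13000. The part of level in the placing was not tested. Of all sequences that changed by at least 0.5 between days 6 and 8, 72 lower and 14 higher were in the range 7001 to 8000, 60 higher and 51 lower in the range 6001 to 7000, and 77 higher and 37 lower in the range 11001 to 12000. Numbers above 10000 held 43.9% of all such upward changes, and numbers 6001 to 9000 held 31.9% of all such downward changes. These ranges were singled out after their counts were seen.

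**Figure D5:**
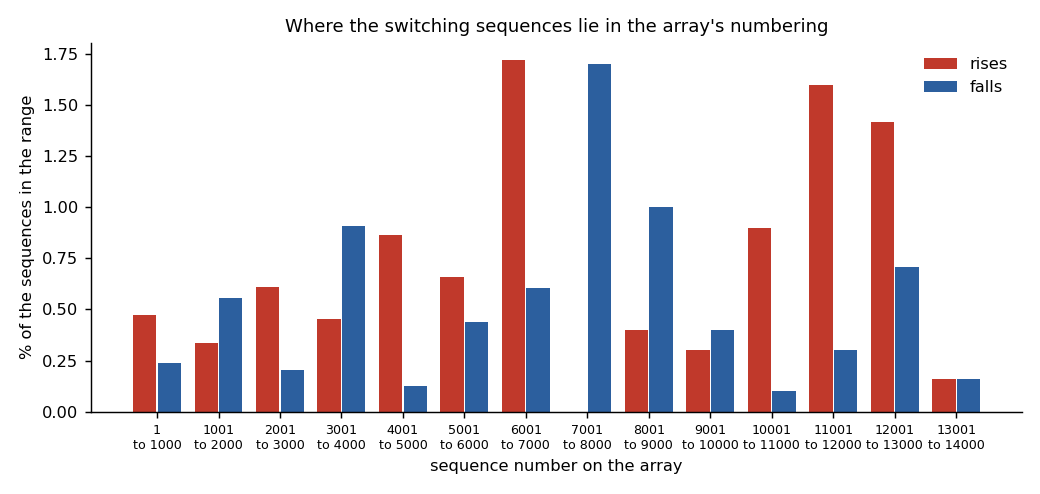
Share of the sequences in each range of 1000 array numbers (x axis) that are rises (red) or falls (blue), in percent (y axis). Falls reach 1.70% in the range 7001 to 8000, which holds 0 rises, and rises reach 1.72% in the range before it.

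Sequences with neighbouring numbers moved alike to a limited degree. Of the 158 members, 6 pairs carried consecutive numbers, and both members of a pair went the same way in 6 of 6. Over all sequences there were 11427 pairs of consecutive numbers. The median correlation of departures was 0.691 in the 6 pairs, against 0.174 over all consecutive pairs. Pairs of rises and pairs of falls in general had mean correlations of 0.428 and 0.341. Counted once per such run, there were 86 rises and 66 falls. The closest pair, singled out after the values were seen, was paxillus_3718 and paxillus_3719, with day means of 10.79, 10.75, 11.31 and 11.45 and of 10.71, 10.66, 11.24 and 11.39. Whether such pairs come from the same gene is not known from the files.

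Neighbours that were not members leaned the same way. The 162 sequences numbered next to a rise had a median day 8 minus day 6 difference of 0.085, and 61.1% of them were above 0, against 50.2% of all sequences. The 123 next to a fall had a median of -0.049, and 61.0% were below 0, against 49.8%. A change of at least 0.5 in the same direction was found in 6.79% and 9.76% of these neighbours, against 4.1% and 4.82% of all sequences. Neighbours that passed the limit of 0.5 but moved at another time are included.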

How the data were processed

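Each of the 12 arrays gave 1 value for each of 12214 sequences and for a control of random sequences. The authors made the deposited log2 values with RMA on whole arrays, per the submitters' processing notes and the file headers. RMA corrects background, equalises the arrays and summarises probes, in a version not given in the sources used here. Values from 2.81 to 15.6 fit a log2 scale, which no header names. A table of the whole series differed from the array files in 0 of 146568 cells. RMA values show change only relative to other sequences. 

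Groups came from the sample titles. A linear model with 1 mean per day was fitted to all 12214 sequences in limma 3.58.1 (R 4.3.3, eBayes, 8 residual and 4.23 prior degrees of freedom), with Benjamini-Hochberg adjustment over all sequences and a threshold of 0.05. Errors of differences are the fit's standard errors. The fit was tested on simulated data. The number of arrays limits the precision. Named sequences are the 2 rises and 2 falls with the largest switch, the 2 of each with the widest gap between the arrays before and after, and the brightest and dimmest of each; all other named sequences were chosen after their values were seen. The members, limits and measures were chosen with earlier results of these data known.

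Other settings tried were the replicate number as a block, array weights, eBayes with trend and robust options, removal of dim sequences, quantile normalization, centring on the median, only the arrays of days 6 and 8, a threshold of 0.01, each array left out, days 6 and 8 exchanged, a median per day, a step limit of 0.6, a flat limit of 0.2 and counting runs of consecutive numbers once.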

Additional observations from a re-analysis of the deposited data

How the results depend on the processing

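Of 78 counts and medians recomputed under other settings, 61 lay near the original (counts within 1.5 times, medians within 0.151). With 1 array left out, 111 of 120 did so. The 78 include the fit to the arrays of days 6 and 8 alone and medians in held-out arrays. Many of these counts were taken on the original members, whose choice favours them. Leaving out an array cannot lower the counts of members that do not overlap. Stricter limits choose fewer sequences by construction: 36 rises and 40 falls at a step of 0.6, and 43 and 38 at a flat limit of 0.2. A median per day chose 97 rises and 66 falls, of which 65 and 49 were original members. With days 6 and 8 exchanged there were 25 rises and 7 falls; of the original members, 0 rises were then called higher and 0 falls lower between those days, 150 and 144 were called in the adjacent intervals, 6 rises and 4 falls in the contrast of day pairs, and 0 and 0 did not overlap. The differences then became -1.18 (paxillus_10815), -1.06 (paxillus_8981), 1.49 (paxillus_1325), 1.00 (paxillus_7377), 0.77 (paxillus_10034), -0.59 (paxillus_950), 0.72 (paxillus_3538), -0.94 (paxillus_12474) and 0.51 (paxillus_13540), by construction.

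Calls in the flat intervals moved most. Between days 2 and 6, 38 members were called with array weights (the cause was not tested), 0 at a threshold of 0.01, and 3 to 23 with 1 array left out, against 13. Between days 8 and 13, 1 was called at 0.01 and 7 to 24 with 1 array left out, against 15. With 1 array left out the non-overlapping rises numbered 79 to 87 and falls 49 to 58, and the contrast of day pairs called 90 rises and 66 to 67 falls.

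With the replicate number as a block, 90 rises and 63 falls were called between days 6 and 8, 14 members between days 2 and 6 and 18 between days 8 and 13. Same-numbered arrays of different days had departures correlated at -0.302 to 0.633 over all sequences, with a mean of -0.003, and 5 of 12 arrays were closest to their own number, so the numbers are not taken to pair the arrays. The signal of paxillus_13540 lies below the control and limits any statement on it; removing dim sequences left 67 falls.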

Other observations

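The other 411 sequences that were at least 0.5 higher at day 8 than at day 6, and the other 521 that were at least 0.5 lower also departed from their day means in opposite directions on several arrays. On the second day 2 array their median departures were 0.107 and -0.088, and on the first -0.139 and 0.091. The mean correlation of departures over the 12 arrays was 0.344 among the 411, 0.123 among the 521 and -0.191 between them, against 0.428, 0.341 and -0.315 for the members. The median level was 10.72 for the 411, against 10.69 for the rises, and 10.94 for the 521, against 11.35 for the falls. These are values without a test.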
